A study of Mus musculus with 24 samples.

Results

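Cdx2 binding was examined at the 10 genes of the mouse Hoxb cluster (Hoxb1, Hoxb2, Hoxb3, Hoxb4, Hoxb5, Hoxb6, Hoxb7, Hoxb8, Hoxb9 and Hoxb13) in colon organoids, which are epithelial cultures grown from colon stem cells in a gel. A Hoxb site was a region with a Cdx2 peak whose summit lay inside one of these genes or within 20 kb to either side (GENCODE vM21, mm10). By this rule 19 of 61454 regions were Hoxb sites, and the 10 genes were among 21938 protein-coding genes. The cluster was selected on the number of libraries per group in which its sites were called and on the rank of their enrichment. Differences between the colon sites and between the media are therefore given as a description, with no test.

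The 12 Cdx2 libraries were made by ChIPmentation, in which chromatin pulled down with an antibody is tagged with sequencing adapters by a transposase. They fell into 4 groups of 3: proximal and distal colon organoids, each in WENR-plus medium (with Wnt3a, EGF, Noggin and R-spondin 1, the niche factors that keep stem cells dividing) or after 3 days in WENR-minus medium without them. The organoids came from 3 mice of 8 weeks and had been cultured for 4 months. All groups carried the same alleles, a heterozygous Cre-inducible BrafV600E allele at the endogenous locus (B6.129P2(Cg)-Braftm1Mmcm/J) and a heterozygous tdTomato reporter in the ROSA26 locus behind a CAG promoter, both of which need Cre, and the labels list no Cre treatment. The labels do not say which libraries came from the same mouse. Peak lists hold no expression values, so the identity of the cultures could not be checked against marker genes. They are cultures of many cells, in which fewer cells bound by Cdx2 and less binding in each cell cannot be told apart.

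Hox genes encode homeodomain transcription factors that set position along the body axis. The Hoxb genes lie side by side in one orientation, and their order on the chromosome follows the position along the axis at which they act, with Hoxb13 and Hoxb9 at the posterior end and Hoxb1 at the anterior end. The cluster also holds the microRNA genes Mir10a and Mir196a-1 and antisense transcripts such as Hoxb5os. Caudal-type factors such as Cdx2, the homeobox factor that specifies the intestinal epithelium, act upstream of Hox genes in the embryo.

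Of the 19 sites, 8 are described one by one because they were called in every library, in each library of one group but in none of its counterpart, or at the highest ranks, and the sequences at the summits of 6 of them are shown. S3 and S9 were called in all 12 libraries. S11 and S17 had a peak in each of the 6 proximal libraries and in no distal library. Within WENR-plus medium, S10 and S16 had a peak in each proximal library but in none of the distal ones, and within WENR-minus medium the same held for S13 and S19. S17, S19 and S9 had the highest median ranks of the 19 sites. Sites are numbered from the Hoxb13 side of the cluster. Each run is from the plus strand of chromosome 11 (RefSeq GRCm38.p6, the mm10 assembly) and reaches 50 bases to either side of the summit of the peak with the highest fold enrichment, and capitals mark matches to the Cdx2 motif (the spelling TTTATGG, the spelling TTTATGA, the spelling TTTATTG and the spelling TTTATTA, on either strand).
S3 (chr11:96259619-96259719): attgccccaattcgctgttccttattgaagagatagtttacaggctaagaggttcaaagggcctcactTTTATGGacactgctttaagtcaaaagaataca
S9 (chr11:96278062-96278162): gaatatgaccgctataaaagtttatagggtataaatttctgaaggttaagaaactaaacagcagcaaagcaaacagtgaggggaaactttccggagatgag
S10 (chr11:96281789-96281889): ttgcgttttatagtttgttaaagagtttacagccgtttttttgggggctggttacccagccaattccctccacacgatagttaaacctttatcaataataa
S11 (chr11:96283664-96283764): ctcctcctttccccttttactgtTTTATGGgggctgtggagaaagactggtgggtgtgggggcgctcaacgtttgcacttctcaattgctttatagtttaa
S17 (chr11:96316451-96316551): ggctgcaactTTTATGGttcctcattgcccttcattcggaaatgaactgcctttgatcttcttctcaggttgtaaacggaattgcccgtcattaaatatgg
S19 (chr11:96319381-96319481): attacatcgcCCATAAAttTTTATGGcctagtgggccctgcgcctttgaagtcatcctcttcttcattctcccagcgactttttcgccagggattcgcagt

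Of the 6 sites shown, S19 held 2 matches, S3, S11 and S17 held 1 each, and none of the motif's 4 spellings occurred in these windows of S9 and S10. Over all 19 Hoxb sites, 10 (52.6%) had a match within 50 bp of the summit. The same share was 57.4% over all 61454 regions, 69.8% over the regions called in all 12 libraries, and 11.6% in windows placed 1000 bp away from the summits. Among Hoxb sites called in at least 5 libraries 7 of 10 had a match, and among the others 3 of 9. A GATA motif (AGATAA or TGATAA) was present at 1 of 19 sites against 18.3% of all regions, and a partial HNF4 site (CAAAGT) at 3 of 19 against 8.43%, both searched on either strand.

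The length of the peak lists differed between libraries and bears on every count. The lists held 5608 to 42192 peaks on the standard chromosomes, with 11409 to 42192 in proximal and 5608 to 21040 in distal libraries. Each list had been called against its own input library at a q-value of 0.01, so a site absent from a list was below that limit in that library and is not shown to be unbound. The study reported fewer reads, and a lower share of reads in peaks, for each distal WENR-plus library than for any proximal WENR-plus library. In WENR-minus medium the colon sites overlapped in these reported values. The number of reads behind each list was not analysed here, and its bearing on the counts was not tested.

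Most Hoxb sites lay in one stretch of the cluster. From 20 kb before Hoxb9 to the end of Hoxb4, 70.2 kb held 17 sites and 86 of the 89 peaks. From the end of Hoxb4 to 20 kb past Hoxb1, 66.6 kb that include Hoxb3, Hoxb2 and Hoxb1, held 0 sites in 12 libraries. The line between these stretches lies just past S19, the last called site, so the split of the counts follows where it was drawn. Motif matches numbered 0.898 per kb in the first stretch and 0.811 per kb in the second. What bears on the difference in sites was not tested. The window of Hoxb13 held 2 sites with 3 peaks in 43.1 kb, and 0.719 matches per kb. Near the limits of the windows, the sites farthest from a member gene body were S1 at 12.74 kb, called in 2 libraries, and S3 at 11.8 kb, called in all 12. The closest region left out lay 25.9 kb from Hoxb13 and was called in 4 proximal and 4 distal libraries at a median percentile of 45.6.

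**Figure D1:**
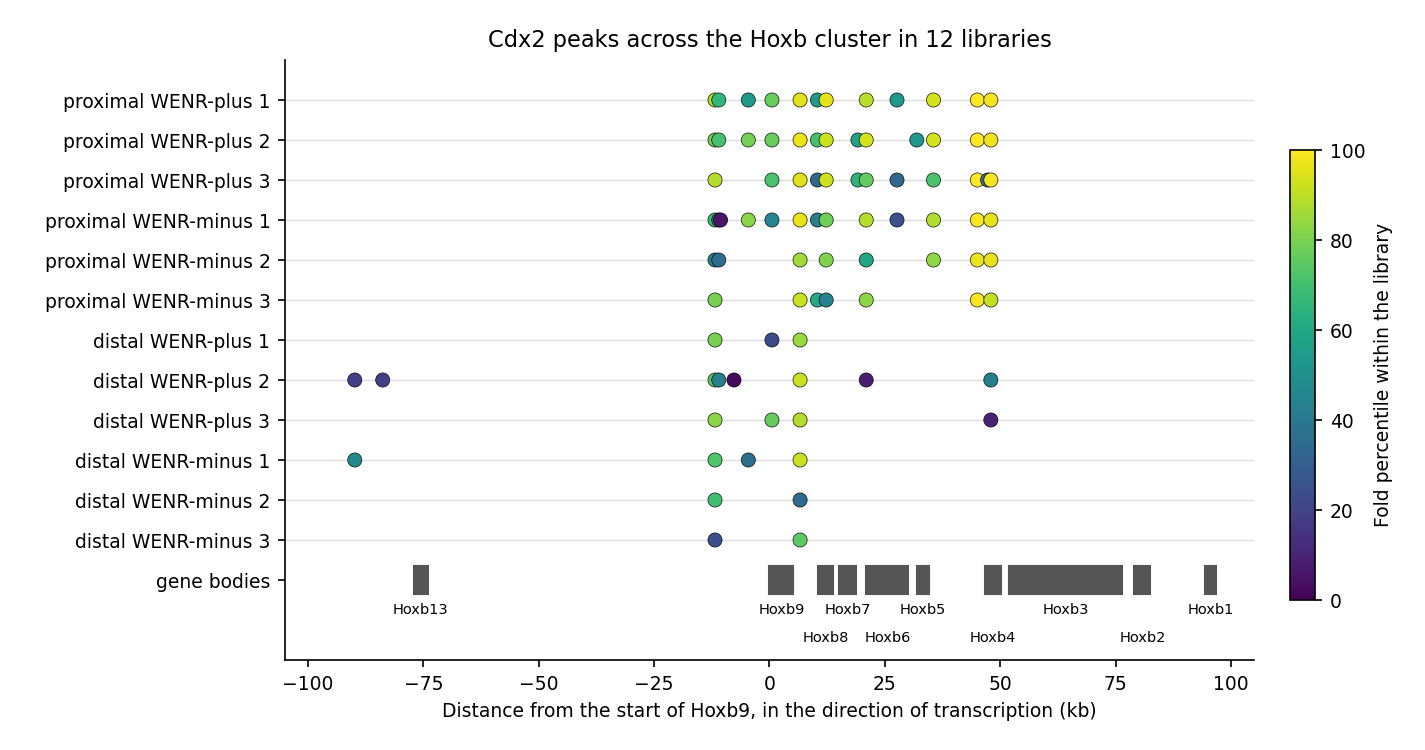
Cdx2 peaks of the 12 libraries along the Hoxb cluster, plotted by distance in kb from the start of Hoxb9, with 1 row per library, 1 point per called site coloured by its fold percentile within that library, and the bodies of the 10 genes below. Proximal rows are filled from 11.8 kb before Hoxb9 to Hoxb4, distal rows mostly by the pair of sites S3 and S9, and no row has a point over Hoxb3, Hoxb2 or Hoxb1.

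Gene by gene, the windows overlap and share sites, so the counts below are not independent. At the posterior end, Hoxb13, the last gene of the cluster, known from the prostate and the posterior gut, had 2 sites in its window. Both lay upstream and were called in distal libraries only (distal WENR-plus replicate 2 and distal WENR-minus replicate 1). These libraries had the longest lists of their groups, with 13371 and 21040 peaks. At S1 their folds were 4.89 and 5.16, at percentiles 18.7 and 46.7. S2, called in the first only, had a fold of 4.89 at percentile 18.7. With a −log10 q of at least 5, S1 kept a peak in 1 distal library and S2 in none. Neither site kept a peak when each list was shortened to the length of the shortest. Nothing is read from these distal calls. Hoxb9 had 11 sites and 1 within 3 kb of a start site, which lay in its exon and was called in 4 proximal and 2 distal libraries. Among the central genes, Hoxb8 had 10 sites, Hoxb7 10, Hoxb6 11 and Hoxb5 9. A peak lay within 3 kb of a start site of Hoxb8 in 6 proximal and 0 distal libraries, of Hoxb7 in 6 and 0, of Hoxb6 in 6 and 1, and of Hoxb5 in 1 and 0. Toward the anterior end, Hoxb4, a regulator of blood stem cells, had 6 sites in its window and a peak within 3 kb of its start in 6 proximal and 2 distal libraries. Hoxb3 had 5 sites in its window, all of them shared with Hoxb4 and outside its own body. Hoxb2 and Hoxb1, which pattern the hindbrain, had none.

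By these windows 8 of the 10 genes had a site, which 66.4% of all protein-coding genes did. A site called in all 12 libraries lay in the window of 4 of them (Hoxb9, Hoxb8, Hoxb7 and Hoxb6) against 7.72% of protein-coding genes, all through S3 or S9. A site with a peak in each proximal library but in none of the distal ones lay in the window of 7 (Hoxb3 to Hoxb9) against 2.52%, all through S11 or S17. The last count rests on the contrast on which the cluster was selected, and nothing is read from it.

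Of the 19 sites, 9 were called in proximal libraries only, 3 in distal libraries only and 7 in both. Sites called in 1 library numbered 5, and 14 were called in at least 2. The same splits were not counted over all regions, and the proximal lists were mostly longer, so nothing is read from them. Called in all 12 were 2 sites, against 3.38% of all regions. A further 2 had a peak in each proximal library but in none of the distal ones (1.04% of regions), and for 0 sites the reverse was true (0.0553%). In WENR-plus medium 4 sites (S10, S11, S16 and S17) had a peak in each of the 3 proximal libraries but in none of the distal ones, against 4.69% of regions, and in WENR-minus medium 4 (S11, S13, S17 and S19), against 2.04%. These counts describe the contrast on which the cluster was selected, and nothing is read from them. No site was called in all 3 WENR-plus and no WENR-minus library of a colon site (0.854% of regions) or the reverse (0.526%).

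**Figure D2:**
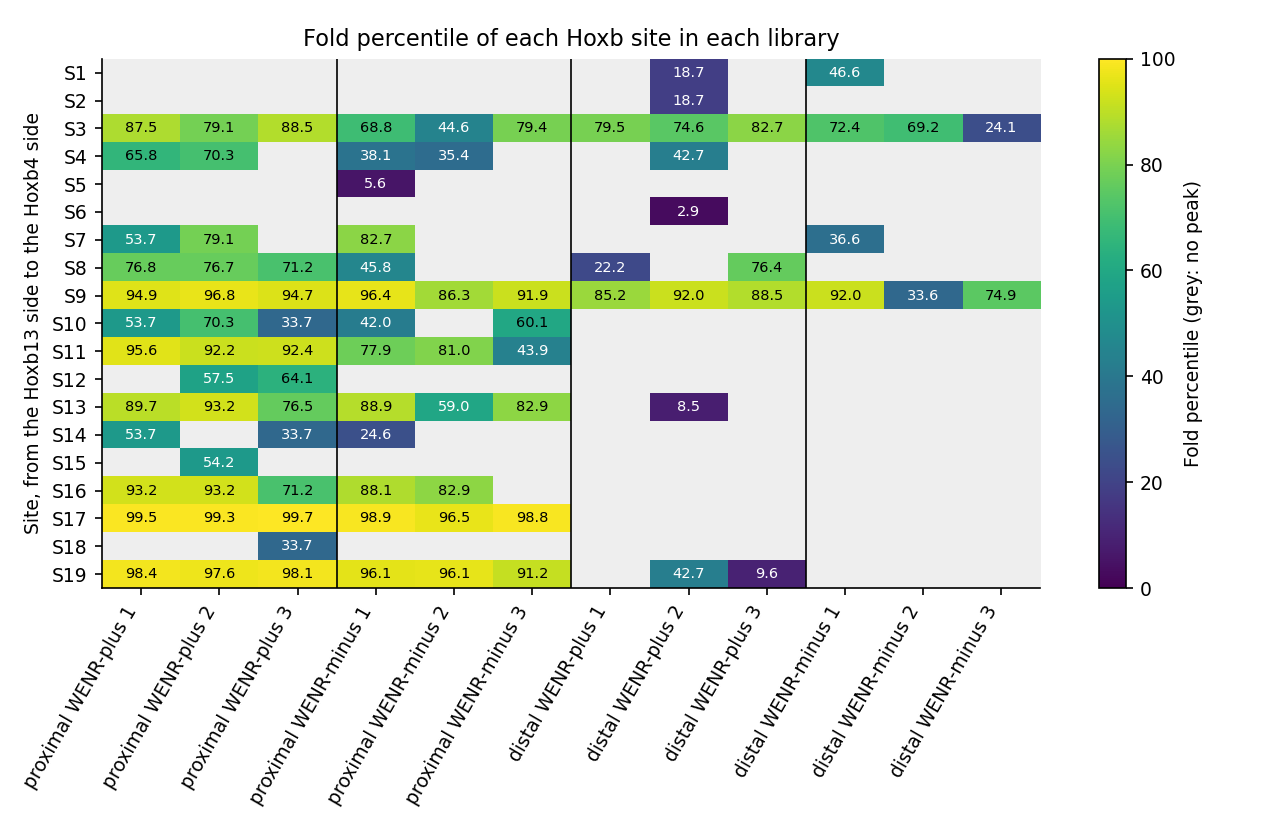
Fold percentile, from 0 to 100 within each library's own peak list, of the 19 Hoxb sites (rows, from the Hoxb13 side to the Hoxb4 side) in the 12 libraries (columns), with grey cells where no peak was called. S17 stands at 96.5 to 99.7 in the 6 proximal columns and is grey in all distal ones, while S3 and S9 have a value in every column.

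The constitutive sites S3 and S9 were the ones shared by every library. S9 (chr11:96277649-96278488) lay between Hoxb9 and Hoxb8, 3820 bp upstream of a Hoxb8 start site. Its fold enrichment over input, the ratio written by the peak caller, was 12.4, 15.2 and 16.4 in proximal WENR-plus, 14.8, 9.55 and 12.96 in proximal WENR-minus, 9.26, 11.1 and 10.7 in distal WENR-plus, and 9.68, 5.17 and 7.69 in distal WENR-minus libraries. Values of the proximal WENR-plus group were above all distal values, and the other groups overlapped. S3 (chr11:96259226-96259919), in an intron of the noncoding gene Gm53 and 11813 bp upstream of Hoxb9, had lower folds, from 4.89 to 12.1, that overlapped between the colon sites.

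Because fold enrichment can differ in scale between libraries, sites were also ranked within their own list, where a percentile of 100 marks the strongest peak. S9 stood at a median percentile of 91.96 (33.65 to 96.8) and S3 at 76.9 (24.1 to 88.5). At both, the WENR-minus libraries spread more widely than the WENR-plus libraries: S9 averaged 92.01 ± 4.42 (SD, n = 6) in WENR-plus and 79.2 ± 23.5 (n = 6) in WENR-minus. These values pool the colon sites. With n = 3 each, proximal S9 averaged 95.46 ± 1.16 in WENR-plus and 91.55 ± 5.08 in WENR-minus. Distal S9 averaged 88.56 ± 3.43 and 66.85 ± 30, with distal WENR-minus replicate 2 at 33.65.

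S17, the site with the highest rank of the cluster, lay 669 bp upstream of a start of Mir10a, a microRNA whose gene sits between Hoxb5 and Hoxb4, and 1771 bp upstream of Hoxb4. Its fold was 25.4, 25.3 and 40.7 in proximal WENR-plus and 23.4, 15.9 and 24.4 in proximal WENR-minus libraries, and no peak was called in any distal library. Those folds put it at percentiles 99.5, 99.3 and 99.7 in WENR-plus and 98.94, 96.5 and 98.85 in WENR-minus. Placed in the distal lists, its lowest proximal fold would rank at 97.4 to 98.6. A fold of that size was thus among the highest in each of the 6 distal lists. Because fold can differ in scale between libraries, such ranks, here and below, cannot show whether a distal library would have called the peak.

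S19, in the intron of Hoxb4, was the site whose rank differed most among the libraries that called it. Its fold was 18.4, 16.9 and 22.7 in proximal WENR-plus, 14.2, 15.2 and 12.6 in proximal WENR-minus, 5.77 and 4.69 in distal WENR-plus replicates 2 and 3, and not called in the other 4 distal libraries. All proximal values lay above both distal ones. The proximal percentiles ran from 91.2 to 98.4 and the distal ones were 42.7 and 9.57.

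Around Hoxb8, a gene of the central group, S11 lay in the intron and S10 at the start site, 66 bp upstream. S11 had folds of 12.99, 10.7 and 14.5 in proximal WENR-plus and 6.99, 8.49 and 5.58 in proximal WENR-minus libraries. As at S17 and S19, these folds did not overlap between the media. By percentile, all 3 WENR-plus values lay above all 3 WENR-minus values in 9.44% of the 6005 regions called in every proximal library. S10 was weaker, with folds of 4.64 to 6.66 in the 5 proximal libraries that called it. Its median fold, 5.48, would rank at 23.0 to 52.1 in the distal lists, near the middle of those lists or below.

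S13 lay 59 bp upstream of a Hoxb6 start site, within an intron of the antisense gene Hoxb5os, and S16 lay 83 bp upstream of a start of Hoxb5os. S13 had folds of 9.51, 11.3 and 9.002 in proximal WENR-plus and 9.40, 6.37 and 9.63 in proximal WENR-minus libraries, and 4.44 in distal WENR-plus replicate 2, at percentile 8.496 of that list. S16 had folds of 11.1, 11.3 and 8.22 in proximal WENR-plus and 9.14 and 8.85 in proximal WENR-minus replicates 1 and 2. At both sites the proximal media overlapped. The 11 remaining sites were called in 1 to 6 libraries each, with percentiles from 2.86 to 82.7.

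**Figure D3:**
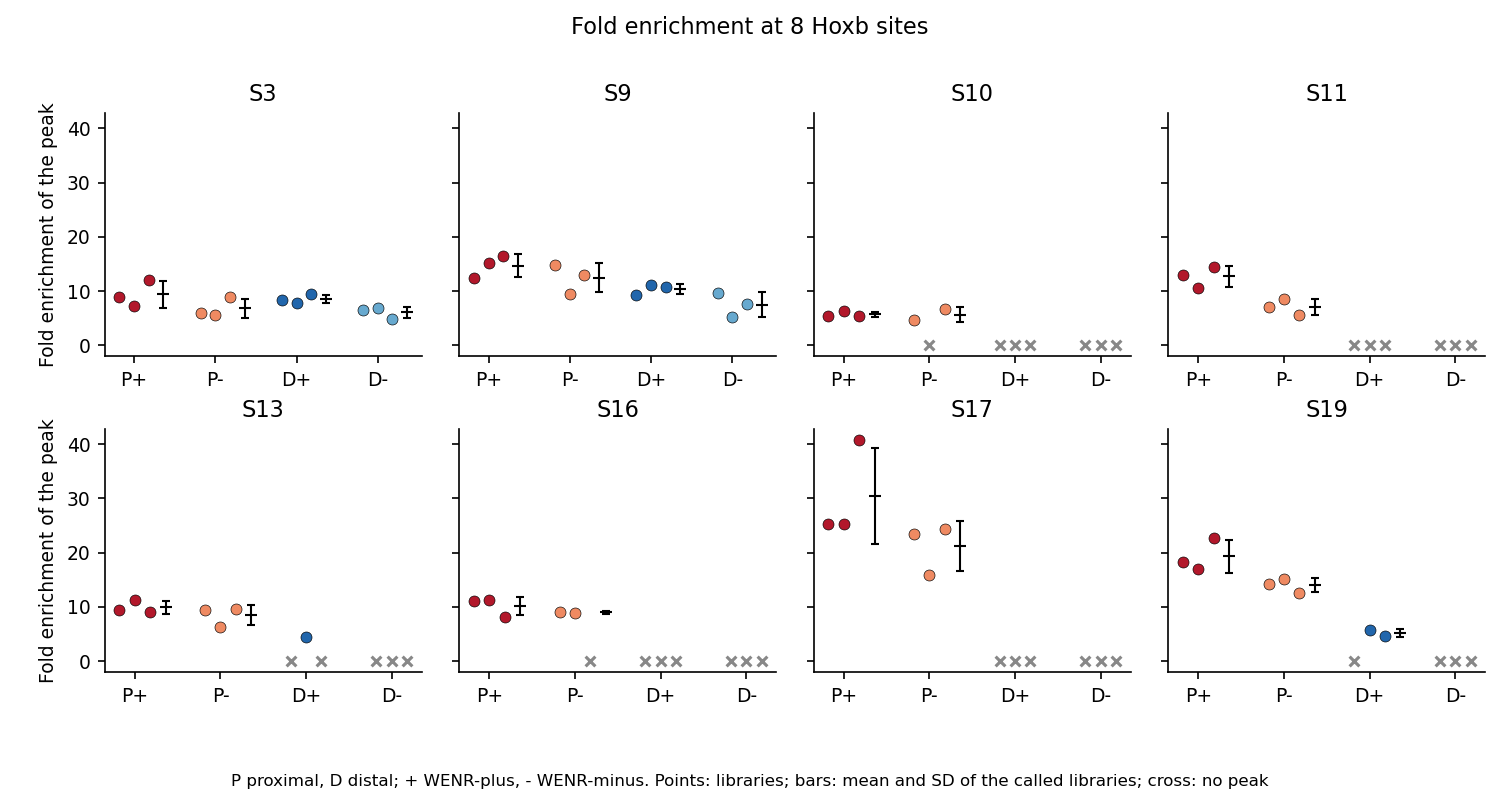
Fold enrichment over input of the peak at 8 Hoxb sites (panels) in proximal (P) and distal (D) organoids in WENR-plus (+) and WENR-minus (-) medium, with 1 point per library, crosses at the foot for libraries with no peak, and bars for the mean and SD of the libraries with a peak. Points at S17 run from 15.9 to 40.7 in proximal libraries with crosses in all distal ones, and S3 and S9 have points throughout.

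Between the colon sites, the number of Hoxb peaks was higher in proximal organoids. As a share of the list, the direction depended on the medium and on how list length was handled. Proximal WENR-plus libraries held 12, 13 and 12 Hoxb peaks, proximal WENR-minus 14, 8 and 7, distal WENR-plus 3, 8 and 4, and distal WENR-minus 4, 2 and 2. Distal WENR-plus replicate 2 reached the same number as proximal WENR-minus replicate 2, so the colon sites overlapped by these libraries. Counted by site, proximal libraries made 65 calls and distal libraries 23. Away from S3 and S9, proximal libraries made 53 calls at the other 17 sites and distal libraries 11, of which distal WENR-plus replicate 2 alone made 6. Setting aside 2 sites called in every library widens the ratio by construction. The same ratio was not counted over all regions, and nothing is read from it.

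Per 1000 peaks of the list the picture differed by medium. In WENR-plus medium the share was 0.375, 0.308 and 0.883 in proximal and 0.407, 0.598 and 0.713 in distal libraries, a mean log2 difference of -0.26, proximal minus distal, with overlapping groups. In WENR-minus medium it was 0.501, 0.502 and 0.614 in proximal and 0.190, 0.253 and 0.253 in distal libraries, a mean log2 difference of 1.22 with no overlap. When each list was shortened to its 5608 strongest peaks, the length of the shortest, Hoxb peaks numbered 7, 6 and 9 in proximal and 2, 2 and 4 in distal WENR-plus libraries, and 6, 5 and 6 in proximal and 1, 2 and 1 in distal WENR-minus libraries. The direction in WENR-plus medium thus turned, with a log2 difference of 1.52 in the shortened lists, and no proximal library had as few Hoxb peaks as any distal library. The cluster was selected on this contrast, so nothing is read from the separation. How many genes of the whole genome separate in the same way in the shortened lists was not counted. In these lists S17 kept a peak in all 6 proximal libraries, S19 in 6, S13 and S16 in 5 each and S11 in 4, while of these only S19 had a peak in a distal library (1).

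**Figure D4:**
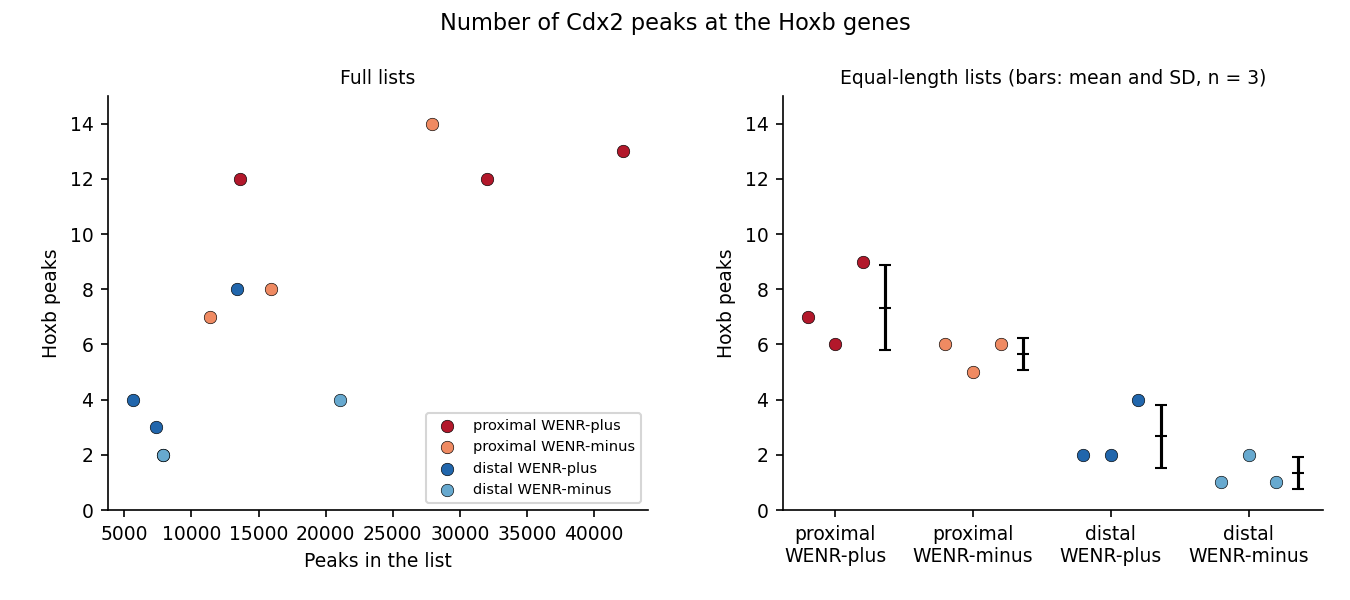
Number of Hoxb peaks per library, left against the length of the full list in peaks and right after each list was shortened to its 5608 strongest peaks, with points for libraries coloured by group and bars for the mean and SD of 3 libraries. On the right the 6 proximal libraries have 5 to 9 Hoxb peaks and the 6 distal libraries 1 to 4; on the left 2 distal WENR-minus libraries of nearly the same length share 1 point.

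The comparison of the media asked whether niche factors change Cdx2 binding at the cluster. Over both colon sites the mean log2 share of Hoxb peaks in the list differed by 0.54, WENR-plus minus WENR-minus. Within proximal organoids the difference was -0.20 and the shares of the media overlapped, and within distal organoids it was 1.28 with no overlap. With every list shortened to 5608 peaks the proximal difference turned to 0.36, the distal one was 1.00 and the value over both 0.68. The distal media then overlapped, with 2, 2 and 4 Hoxb peaks in WENR-plus and 1, 2 and 1 in WENR-minus libraries.

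At the constitutive sites S3 and S9 the percentiles were set side by side between the media. The mean percentile of the pair was 91.2, 87.96 and 91.6 in proximal WENR-plus and 82.6, 65.4 and 85.7 in proximal WENR-minus libraries. In distal organoids it was 82.3, 83.3 and 85.6 in WENR-plus and 82.2, 51.4 and 49.5 in WENR-minus libraries. At each colon site the WENR-plus means of the pair lay above all WENR-minus means, distal WENR-minus replicate 1 by only a small margin. Taken singly, the media overlapped at S3 in proximal organoids and at S9 at both colon sites. Among single regions called in all 12 libraries, 15 of 2079 had all WENR-plus above all WENR-minus percentiles at both colon sites, and neither S3 nor S9 was among them. A share of single regions is not a background for the mean of a pair, and other pairs were not counted. The average difference of the pair S3 and S9 was 17.5 percentile points. S3 on its own averaged 22.2 points higher in WENR-plus medium and S9 12.8, beside a median of 0.11 over the 2079 regions called in all 12 libraries (5th to 95th percentile -16.9 to 18.7).

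At the 6 Hoxb sites called in every proximal library (S3, S9, S11, S13, S17 and S19), the mean percentile was higher in WENR-plus in each, by 1.40 points at S17, 3.57 at S19, 3.91 at S9, 9.55 at S13, 20.8 at S3 and 25.8 at S11. The median of these differences was 6.73, beside 4.11 over the 6005 regions called in all 6 proximal libraries. At S11, S17 and S19 all 3 WENR-plus percentiles lay above all 3 WENR-minus percentiles, which held for 9.44% of those regions, and the reverse held for 0 of the 6 sites and 2.75% of regions. In distal organoids the 3 WENR-plus percentiles lay above the WENR-minus ones at S3 but not at S9, against 3.44% of 2445 regions called in all 6 distal libraries, and the reverse held at neither (8.43% of regions). This comparison was added after the values had been seen.

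The other Hox clusters were counted in the same way. Hoxb had 66 peaks in proximal and 23 in distal lists, Hoxa 77 and 82 over 26 sites, Hoxc 46 and 34 over 11 sites, and Hoxd 19 and 4 over 4 sites. In the shortened lists the totals were 39 and 12 for Hoxb, 37 and 57 for Hoxa, 34 and 24 for Hoxc, and 12 and 4 for Hoxd. The Hoxa cluster thus had more peaks in distal than in proximal lists in both forms, and the others fewer. Sites with a peak in each of the 6 proximal libraries and in no distal one numbered 2 at Hoxb, 1 at Hoxa, 0 at Hoxc and 1 at Hoxd. No test was made between clusters, since Hoxb was selected on this contrast.

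**Figure D5:**
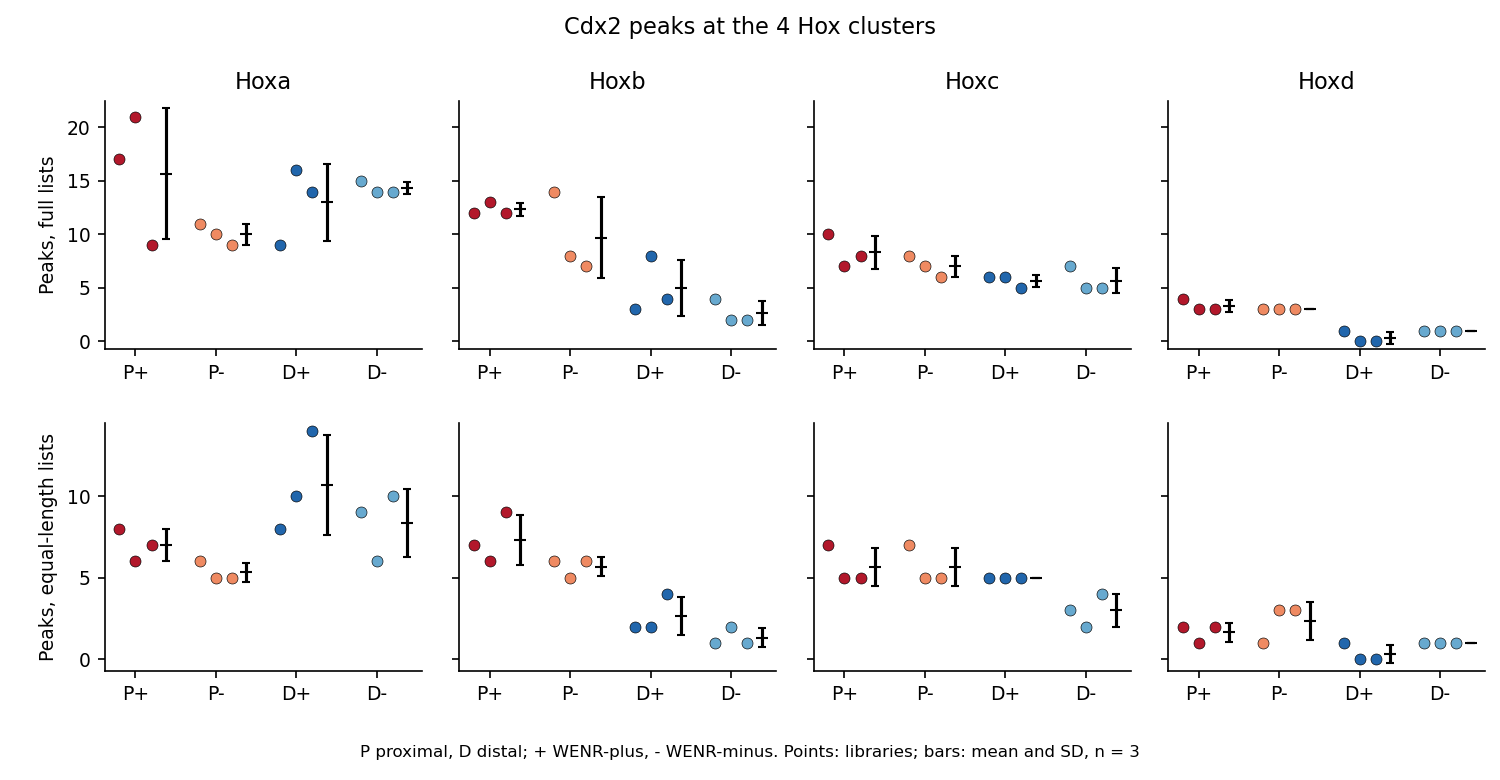
Number of Cdx2 peaks at the Hoxa, Hoxb, Hoxc and Hoxd clusters (columns of panels) in full lists (top) and in lists shortened to 5608 peaks (bottom), for proximal (P) and distal (D) organoids in WENR-plus (+) and WENR-minus (-) medium, with points for libraries and bars for the mean and SD of 3 libraries. At Hoxb the proximal points of the bottom row (5 to 9) lie above the distal ones (1 to 4), and at Hoxa the distal points (6 to 14) reach above the proximal ones (5 to 8).

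Among genes outside the Hox clusters, the 3 Cdx genes had 6 sites with 16 peaks in proximal and 3 in distal lists. Of the genes that flank the cluster, Skap1 had 5 sites with 11 proximal and 0 distal peaks, Ttll6 had 4 sites with 9 and 11 peaks, and Calcoco2 had 0 sites. The regions whose percentiles over the 12 libraries, set to 0 where not called, were most like those of S17 lay nearest to Lingo2, Defb37 and Auts2 (Pearson r = 0.9999 for each). Any region called only in the 6 proximal libraries at a high rank gives an r near 1. The regions most like S9 lay nearest to S100a10, Xylt1 and Dhrs3 (r = 0.9782, 0.9748 and 0.9743 over the same 12 libraries), and the points share their lists.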

How the data were processed

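Cdx2 ChIPmentation libraries of mouse colon organoids were grouped by the colon site and medium in the labels. The authors' pipeline, per the labels and the methods of the study, used Trimmomatic 0.39 for trimming, Bowtie2 2.4.5 for alignment (mm10), SAMtools 1.13 and, for each library against its input, MACS2 2.2.7.1 at q 0.01. The 12 input libraries were not analysed here. The deposited lists give for each peak a fold enrichment (a ratio to background), −log10 p and −log10 q values, a score and the summit offset. The fold was used, and its percentile within each list; the score was not used.

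Between 63 and 104 peaks per list, on contigs other than the autosomes, X and Y, were left out. Peaks sharing at least 1 bp were merged over the 12 lists. Proximal WENR-minus replicate 1 had 2 peaks in 1 Hoxb site, so its 14 peaks mark 13 sites. Genes came from GENCODE vM21 and sequence from RefSeq GRCm38.p6 (python 3.11.15, pandas 2.3.3, numpy 2.4.6, pysam 0.24.0). Exact permutation tests between the media had been planned and the code was tested on simulated data, but they use the calls and percentiles on which the cluster was selected, so no p is given. Sites were named by rule: called in all 12 libraries, in all of one colon site or group and none of its counterpart, or among the 3 highest median percentiles. The members and lists were chosen with earlier results of these data known. Alternatives were a replicate block, each replicate number left out, a −log10 q of at least 5, lists of equal length (5608 peaks), windows of 10 and 50 kb, peak numbers in place of shares, ranks of −log10 q, summits joined within 200 bp and a motif window of 100 bp; leaving out distal WENR-plus replicate 2, and the 4 Hox clusters in lists of equal length, were added after seeing the data. A few genes and summit sequences are not reported here.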

Additional observations from a re-analysis of the deposited data

How the results depend on the processing

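Replicate numbers were not treated as pairs, since the labels do not say which libraries share a mouse. The correlation of deviations from the group means between same-numbered libraries of the 2 media of a colon site ran from -0.0776 to 0.422, over 0.1 in 4 of 6. A replicate block leaves each mean difference as it was: 17.5 percentile points at S3 and S9, and a log2 share of 0.54 over both colon sites, -0.20 in proximal and 1.28 in distal organoids.

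The percentile difference at S3 and S9, WENR-plus minus WENR-minus, stayed positive in every alternative run. It was 18.8 with a −log10 q of at least 5, 19.3 in lists of equal length and 12.8 with windows of 10 kb, each of which leaves S9 as the 1 site called in all 12 libraries. Without distal WENR-plus replicate 2 it was 17.6, and without 1 replicate number it ran from 12.69 to 24.1. The share over both colon sites was 0.68 in lists of equal length. The distal share was 1.00 in lists of equal length, 0.96 with a −log10 q of at least 5 and 0.86 as a number of peaks. In lists of equal length and as a number of peaks, the distal media overlapped. The proximal share turned positive in lists of equal length (0.36) and as a number of peaks (0.42), and ran from -0.56 to 0.052 without 1 replicate number; the cause was not tested.

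Between the colon sites in WENR-plus medium, the log2 difference of -0.26 turned to 0.46 with a −log10 q of at least 5, 1.52 in lists of equal length, 0.094 with windows of 10 kb and 1.43 as a number of peaks, and ran from -0.54 to 0.095 without 1 replicate number. In WENR-minus medium it moved from 1.22 to 1.51, 2.16, 1.89 and 1.87 in the same order, and to 0.81 with windows of 50 kb. Hoxb sites numbered 11 in lists of equal length. Sites called in all 12 libraries fell to 1 with a −log10 q of at least 5, in lists of equal length and with windows of 10 kb. Sites called in all proximal and no distal libraries numbered 1 in lists of equal length and 2 to 4 without 1 replicate number. Leaving out a replicate number applies the rule to fewer libraries. The share of all regions was not counted under these settings, so nothing is read from these counts. The motif share was 73.7% within 100 bp, beside 78.6% over all regions. A peak missing from a list was below the calling limit there, which limits every count of absent peaks.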
